A study of Mus musculus with 11 samples.

Results

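WTSI is a polycistronic reprogramming cassette, a transgene that encodes several reprogramming factors in a single transcript, and its array was set against those of OKMS, STEMCCA and EB-C5. These are the other 3 cassettes with the short form of Klf4, a form that lacks a stretch of residues at the amino terminus. The arrays were chosen by the name of the construct alone, which gave 1 array against 3, or 4 of the 11 arrays of the series. The labels do not give the Klf4 form of WTSI, OKMS, STEMCCA or EB-C5, and the grouping by form rests on knowledge of the study. The series measured gene expression in mouse embryonic fibroblasts (MEFs) that received 1 of 8 cassettes, Klf4 alone or lacZ. The comparison asks where the WTSI array differs from the other 3.

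All 4 populations were MEFs of male F1 hybrid embryos at 13.5 dpc, with a ROSA-rtTA allele, which supplies the transactivator that doxycycline switches on, and a Nanog-GFP reporter. Each carried a piggyBac PB-TAC transposon with WTSI, OKMS, STEMCCA or EB-C5, inserted with the pCyL43 transposase plasmid, and expressed the cassette together with mCherry under doxycycline at 1 µg/mL. Cells positive for mCherry were sorted on day 6. The cells used beside them were the 4 cassettes with long Klf4 (OSKM, OK+9MS, MKOS and OKN-HAMS), Klf4S and Klf4L, all handled in the same way, and lacZ cells, which were harvested on day 2 without that sort. The same alleles, transposon, transposase and doxycycline were shared by all 11 samples. Each construct was measured on 1 array, so that the spread among OKMS, STEMCCA and EB-C5 is a spread between different constructs. No repeated culture of WTSI was measured, so the construct cannot be told apart from its culture, sort or array. The populations were sorted but bulk, so fewer cells of a kind and less RNA per cell cannot be told apart.

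Reprogramming of fibroblasts with Oct4 (Pou5f1), Sox2, Klf4 and c-Myc passes through a loss of fibroblast features and a gain of epithelial adhesion before genes of the pluripotent state are switched on. Nanog is a homeodomain factor of that late state, and its promoter is a textbook target of Oct4 and Sox2. Immediate early genes, such as Fos and Egr2, are transcribed within minutes of a growth factor or stress signal, and Id genes are targets of BMP signalling that block helix-loop-helix factors of differentiation.

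The deposited values are log2 values, so a difference of 1 is 2-fold, and levels were compared between arrays only. Array medians ran from 7.188 to 7.269 over the 11 arrays. Values under 6 lie near the low end of the array, where a difference is a lower bound in size. Fibroblast markers were high on all 4 arrays: vimentin (Vim) read 13.65 in WTSI against 13.55 in OKMS, 13.64 in STEMCCA and 13.61 in EB-C5, and the 27 measured mesenchymal and matrix genes averaged 10.96 in WTSI against 10.81, 11.59 and 10.95. Markers of other cell types averaged near or below the array medians. The 13 macrophage markers averaged 6.26 in WTSI against 6.16 to 6.21 in the other 3, and the pan-leukocyte marker Ptprc read 5.59 against 5.62 to 5.79. The 12 endothelial markers averaged 6.71 against 6.71 to 6.81, the 10 skeletal muscle markers 6.74 against 6.65 to 6.68, and the 9 cartilage and bone markers 7.16 against 6.92 to 7.20. Of these 44 markers, 7 read above the highest array median on at least 1 of the 4 arrays. They were the lysosomal protein Cd68, which read 9.01 in WTSI against 8.11 to 8.39, the angiopoietin receptor Tek, at 9.36 against 9.05 to 10.03, and the ETS factor Erg, at 7.15 against 7.02 to 7.46. The skeletal actin gene Acta1 read 8.90 in WTSI against 8.19 to 8.50. The cartilage transcription factor Sox9 read 9.00 against 8.22 to 8.80, and the collagen genes Col2a1 and Col11a1 read 8.36 against 7.86 to 8.31 and 8.53 against 8.23 to 9.31. The part of such cells in the results was not tested.

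The signals of the reprogramming factors were read next. The Pou5f1 signal was 12.88 in WTSI, against 13.22 in OKMS, 11.89 in STEMCCA and 12.94 in EB-C5, with 6.09 in lacZ, so it lay within the range of the other 3. Sox2, the SRY-box partner of Oct4, read 7.76 in WTSI, against 6.58, 6.22 and 6.88, a difference of 1.20 ± 0.20 (SE, 1 array against 3; limma adjusted p = 0.393). The WTSI value for Sox2 lay 0.88 above the nearest of the 7 other cassettes. The lacZ cells, which carry no reprogramming factor, read 6.79 for Sox2, above OKMS, STEMCCA and the long-Klf4 cassettes (6.57 to 6.63). Klf4 read 10.20 in WTSI against 9.94, 9.64 and 9.90, with 9.47 in lacZ. In Klf4S and Klf4L, which carry Klf4 alone, it read 9.93 and 9.71. Myc read 10.77 against 10.76, 10.49 and 9.86, with 9.54 in lacZ. Where the probes lie within each transcript was not known here. How far each signal reads the cassette's message or the endogenous one was not tested, and neither was the source of the Sox2 difference.

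Over all 19938 genes, WTSI differed from the mean of the other 3 by a median of -0.004, and the SD of the difference was 0.265. At least 2-fold higher and above the range of all 3 were 66 genes (0.331% of those tested), and at least 2-fold lower and below the range were 86 (0.431%). Without regard to size, WTSI lay above the range at 22.7% of genes and below it at 22.1%, and above the mean at 48.8%. No gene passed limma's test at an adjusted p under 0.05 (0% of genes), and 1271 genes (6.37%) had an unadjusted p under 0.05. The fit covered all 11 arrays with 6 residual degrees of freedom, and the fit lends the spread of the other groups to the lone WTSI array. The smallest adjusted p was 0.0602, for Ecscr, a surface protein of endothelial cells, which read 7.81 in WTSI against 8.83, 8.93 and 8.96, a difference of -1.10 ± 0.09 (SE). An exact permutation test of 1 array against 3 cannot give a p below 0.25 one-sided or 0.5 two-sided, so single genes have no such test. At the 2-fold threshold, the members just inside were Eola1 (1.003) and Renbp (1.001 lower), and those just outside were Frat1 (0.995) and Ifit3 (0.998 lower).

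Each of the other 3 cassettes was set against its own other 3 in the same way. WTSI gave 152 genes in both directions (0.762%), OKMS 224 (1.12%), STEMCCA 377 (1.89%) and EB-C5 137 (0.687%). The limma fit called 0 genes for WTSI, against 4 for OKMS (0.0201%), 7 for STEMCCA (0.0351%) and 5 for EB-C5 (0.0251%), and 0 for each cassette when the 4 arrays were fitted by themselves. By this count WTSI stood nearer to its group than OKMS and STEMCCA did and close to EB-C5. The comparisons share the same 4 arrays, and the counts are a description. Across the 19938 genes of the same array type, Pearson's r with WTSI was 0.988 for EB-C5, 0.984 for OKMS, 0.982 for STEMCCA, 0.969 to 0.976 for the long-Klf4 cassettes, 0.970 for lacZ and 0.956 for both Klf4 constructs.

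**Figure D1:**
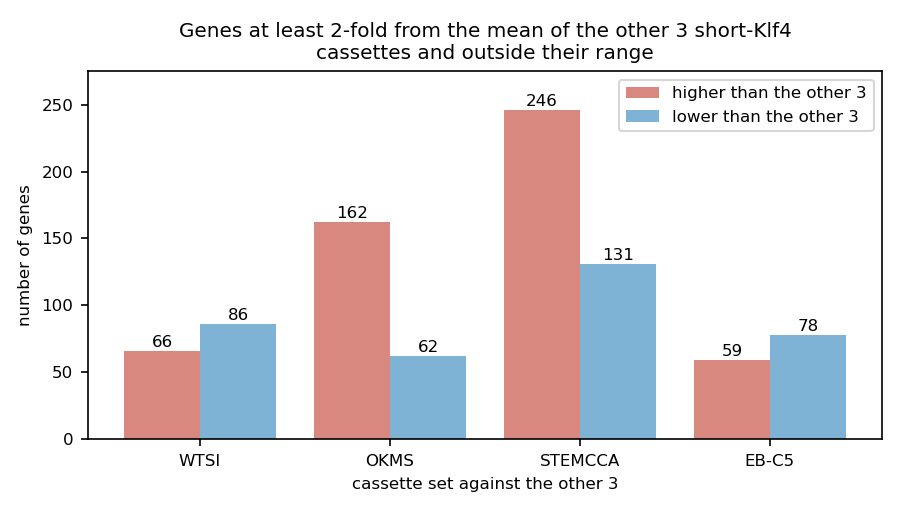
Number of genes (y axis) at least 2-fold from the mean of the other 3 short-Klf4 cassettes and outside their range, for each cassette in turn (x axis), with genes higher than the other 3 in red and genes lower in blue. WTSI has 66 and 86, fewer than OKMS (162 and 62) and STEMCCA (246 and 131) in sum and close to EB-C5 (59 and 78).

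The list with the highest median difference was that of immediate early genes. All 14 measured AP-1 and immediate early genes read above the mean of the other 3 in WTSI (48.8% of all genes did). Above the range of all 3 lay 13 (22.7% of all genes did). At least 2-fold higher were 5 (Fosb, Fos, Atf3, Egr2 and Dusp1), against 0.331% of all genes. None was called by limma. The median difference of the list was 0.86, against -0.004 over all genes. The list averaged 9.92 in WTSI, against 8.74 in OKMS, 9.27 in STEMCCA and 8.86 in EB-C5. The long-Klf4 cassettes averaged 9.29 to 9.67, Klf4S and Klf4L 9.33 and 9.50, and the unsorted lacZ cells of day 2 averaged 9.84, so WTSI had the highest of the 11 values and OKMS the lowest.

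Among the AP-1 subunits, Fosb read 10.90 in WTSI, against 7.94 in OKMS, 9.17 in STEMCCA and 9.27 in EB-C5, a difference of 2.10 ± 0.78 (SE; limma adjusted p = 0.705). The related Fos-family gene Fos read 10.28 in WTSI, against 7.60, 9.20 and 8.79 (1.75 ± 0.74). OKMS was the lowest array for both, and without OKMS the differences were 1.68 for Fosb and 1.28 for Fos. Atf3, a stress-induced factor that dimerises with Jun proteins, read 9.72 against 7.88, 8.44 and 8.33 (1.5 ± 0.30), and lacZ was higher still, at 10.42. The zinc finger factor Egr2 read 8.99 against 7.92, 8.12 and 7.54 (1.13 ± 0.21), and the 4 long-Klf4 cassettes lay between 7.74 and 8.03. The MAP kinase phosphatase Dusp1 read 11.50 against 10.14, 10.88 and 10.11 (1.12 ± 0.29), a level that all 4 long-Klf4 cassettes approached, at 11.14 to 11.48. WTSI lay above all 7 other cassettes for 9 of the 14 genes, against 13.5% of all genes. For Fosb, Fos and Atf3 the gap was small (0.23, 0.33 and 0.15), since the long-Klf4 cassette OKN-HAMS read 10.67, 9.94 and 9.56. The only member within the range was the AP-1 subunit Fosl2, at 10.31 against 9.66, 10.49 and 9.75.

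Promoters of these genes were searched for motifs because the members read high together. RefSeq windows of 300 bases (GRCm38.p6; 250 before to 50 after a transcript's start) were found for 10 of the 14 genes. The CArG box, the site of serum response factor, was found on either strand in the window of 1 of these 10 genes, Egr2, and in 1.63% of all 32851 windows. The AP-1 site TGANTCA was in the windows of 0 of the 10 genes and in 7.81% of all windows, and the CRE site TGACGTCA was in that of Dusp1 alone and in 1.79% of all windows. A match describes the letters and is not a bound site, and a window without a match says nothing of the factor. The Egr2 window at chr10:67537316-67537615 on the plus strand is shown with the CArG box in capitals, 72 bases before the start; 4 of the 5 Egr2 windows held it.
Egr2 promoter: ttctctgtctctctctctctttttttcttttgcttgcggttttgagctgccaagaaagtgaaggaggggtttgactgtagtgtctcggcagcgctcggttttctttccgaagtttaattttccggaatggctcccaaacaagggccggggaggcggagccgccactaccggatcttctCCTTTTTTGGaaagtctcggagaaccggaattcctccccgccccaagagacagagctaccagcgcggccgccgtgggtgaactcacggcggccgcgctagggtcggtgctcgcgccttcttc

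Id genes and other targets and inhibitors of BMP signalling made up the next group. Of 16 measured members, 8 lay above the range of the other 3 (22.7% of all genes did) and 2 below it. At least 2-fold higher were 3 (Id3, Id1 and Smad9), against 0.331% of all genes, and the median difference was 0.21. Id3 read 10.33 in WTSI, against 8.51 in OKMS, 8.80 in STEMCCA and 8.21 in EB-C5, a difference of 1.82 ± 0.31 (SE; limma adjusted p = 0.393). This was 1.49 above the nearest of the 7 other cassettes: the 4 long-Klf4 cassettes read 8.04 to 8.84, while lacZ read 9.94. Id1 read 10.64 in WTSI, against 9.40, 8.84 and 8.45 (1.74 ± 0.52), but OK+9MS reached 10.50. Smad9, a BMP-activated SMAD, read 8.09 against 7.13, 7.10 and 6.89 (1.05 ± 0.19), and the inhibitory Smad6 read 8.66 against 7.64, 8.21 and 7.73 (0.80 ± 0.21). The ligand gene Bmp2 lay on the other side, at 6.04 in WTSI against 6.99, 7.87 and 6.21 (-0.98 ± 0.52). None of these differences was called by limma.

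**Figure D2:**
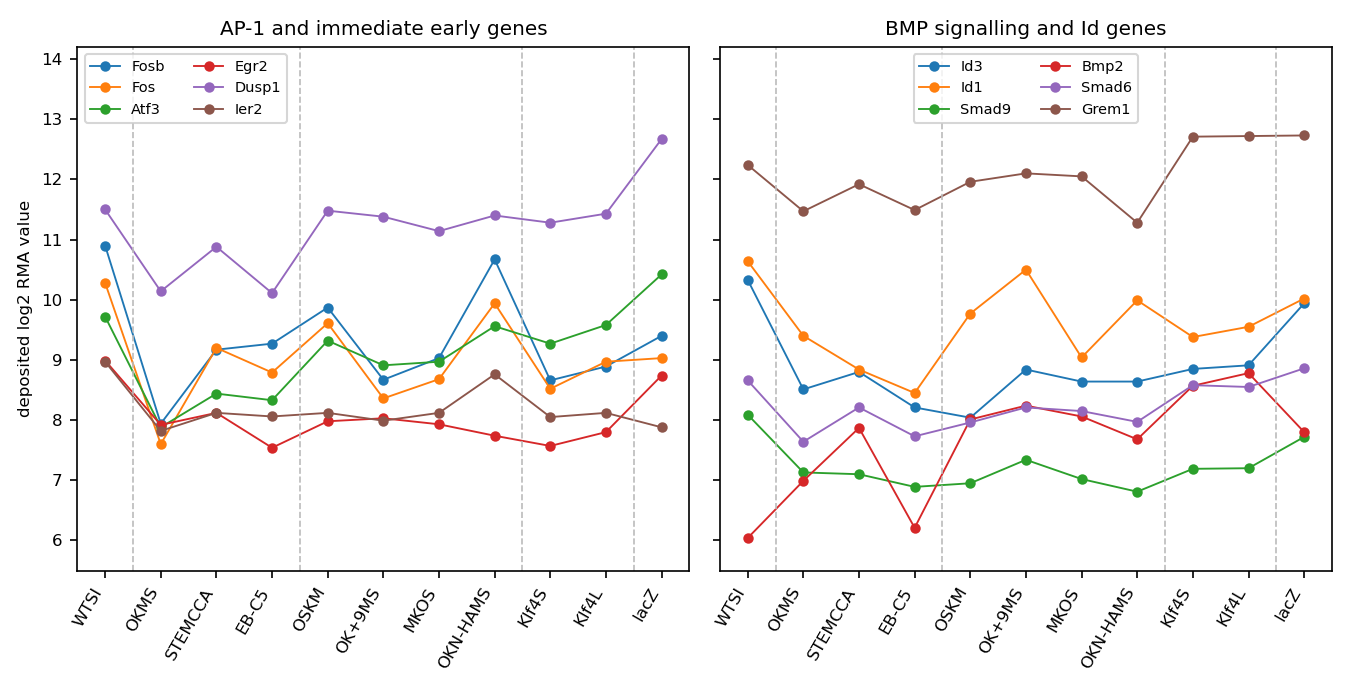
Deposited log2 RMA values (y axis) on all 11 arrays (x axis) for the 6 genes with the largest difference in each of the immediate early (left) and BMP and Id (right) lists; lines join the values of 1 gene and imply no order, and dashed lines part the groups. WTSI stands above the 3 arrays to its right for every gene but Bmp2, and WTSI is close to lacZ for Id3 (10.33 against 9.94).

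Beyond these lists, some genes were high in WTSI alone among the cassettes and others were shared with EB-C5. Id3 (1.49), the uridine phosphorylase Upp1 (1.28), the progesterone-inactivating dehydrogenase Akr1c18 (1.13) and the helix-loop-helix factor Atoh8 (0.99) had the largest gaps above all 7 other cassettes. WTSI exceeded all 7 by at least 1 at 3 genes (0.015%). Akr1c18 read 8.69 in WTSI, against 6.43 in OKMS, 5.90 in STEMCCA and 7.34 in EB-C5 (2.13 ± 0.62), and with STEMCCA under 6 this difference is a lower bound. Upp1 read 9.15 against 7.64, 7.87 and 7.71 (1.41 ± 0.31), and Atoh8 read 9.03 against 7.86, 7.68 and 7.60 (1.32 ± 0.24). OKMS, STEMCCA and EB-C5 lay close together for Upp1 and Atoh8, and lacZ read 7.63 for Akr1c18, 7.74 for Upp1 and 9.15 for Atoh8.

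EB-C5 was the array nearest to WTSI for 31 of the 66 higher genes, against 21 for OKMS and 14 for STEMCCA. The nearest array was not counted over all genes, where EB-C5 also had the highest Pearson's r with WTSI (0.988). Arhgef33, a guanine nucleotide exchange factor gene, read 9.58 in WTSI, against 6.45 in OKMS, 6.48 in STEMCCA and 8.96 in EB-C5 (2.28 ± 0.84). The calcium-binding protein gene Necab1 read 9.49 against 7.68, 6.95 and 9.38 (1.48 ± 0.74). Nat8l, which makes N-acetylaspartate, read 10.18 against 8.95, 7.45 and 9.85 (1.44 ± 0.76). WTSI and EB-C5 were both high for these 3 genes, and the 4 long-Klf4 cassettes lay at 6.20 to 6.36 for Arhgef33, 6.14 to 6.47 for Necab1 and 7.11 to 7.89 for Nat8l. Without EB-C5 the differences of these 3 genes were 3.11, 2.17 and 1.98, larger because the array nearest to WTSI was left out. The brain fatty acid binding protein gene Fabp7 had the same order, at 10.65 in WTSI against 9.21, 8.66 and 10.31 (1.26 ± 0.69). Without STEMCCA the differences were 0.96 for Necab1, 0.79 for Nat8l and 0.89 for Fabp7, under 2-fold.

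Other genes were high in WTSI and in groups outside the short-Klf4 cassettes. The prostaglandin synthase gene Ptgs2 read 12.05 in WTSI, against 10.43 in OKMS, 10.85 in STEMCCA and 10.12 in EB-C5 (1.58 ± 0.27), within the range of the long-Klf4 cassettes (11.63 to 12.17) and below lacZ (12.92). The small leucine-rich proteoglycan gene Prelp read 11.51 against 9.47, 10.23 and 10.31 (1.51 ± 0.31), with 11.68 to 12.03 in the long-Klf4 cassettes and 8.96 in lacZ. The orphan receptor gene Gpr50 read 9.61 against 8.89, 6.48 and 6.55 (2.30 ± 1.01), with 8.95 to 10.71 in the long-Klf4 cassettes. For these 3 genes it was the other short-Klf4 cassettes, all 3 or STEMCCA and EB-C5, that stood below the rest of the cassettes. The chemokine receptor gene Cxcr6 read 7.77 in WTSI against 6.21, 5.97 and 6.16 (1.65 ± 0.37), and the connexin gene Gjb2 8.62 against 7.42, 6.98 and 6.89 (1.52 ± 0.43). The retinol dehydrogenase gene Adh7 read 9.55 against 8.39, 7.47 and 8.55 (1.41 ± 0.48). Without EB-C5, the differences of Egr2 (0.98), Dusp1 (0.99) and Smad9 (0.97) were just under 2-fold. Of the 66 higher genes, 48 lay above all 7 other cassettes. The WTSI value was within 1 of lacZ for 31, of the long-Klf4 mean for 33 and of the Klf4-alone mean for 24. Over all genes of any size, 4533 lay above the range of the other 3 and 2699 above all 7. Nearness to these groups was not counted over all genes.

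**Figure D3:**
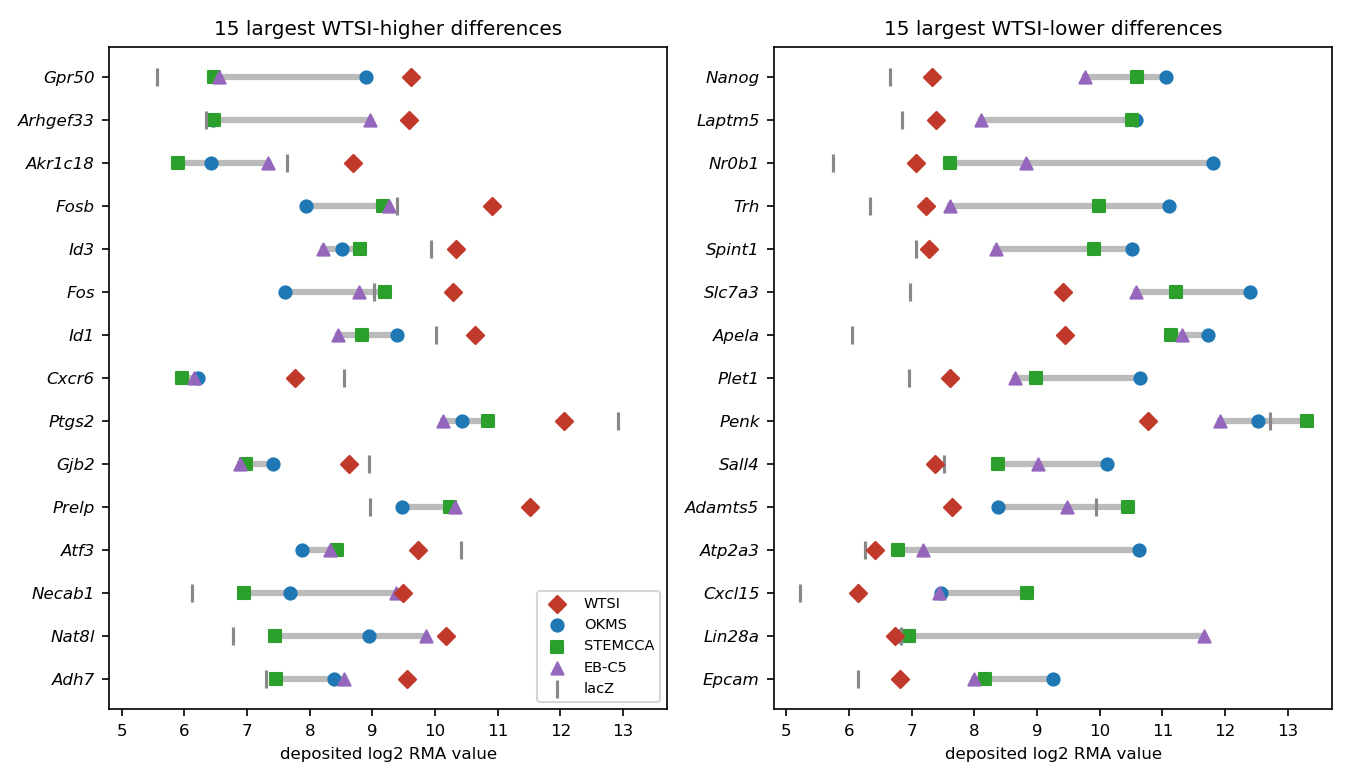
Deposited log2 RMA values (x axis) of WTSI, OKMS, STEMCCA, EB-C5 and lacZ for the 15 genes with the largest positive (left) and the 15 with the largest negative difference (right) among genes at least 2-fold from the mean of the other 3 and outside their range; grey bars span OKMS, STEMCCA and EB-C5. WTSI (red) lies right of every bar on the left and left of every bar on the right, and the bars range from narrow (Cxcr6, 5.97 to 6.21) to wide (Lin28a, 6.81 to 11.66).

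The lowest reading relative to the group was that of Nanog. It read 7.33 in WTSI, against 11.05 in OKMS, 10.60 in STEMCCA and 9.76 in EB-C5, a difference of -3.14 ± 0.77 (SE; limma adjusted p = 0.557). The 4 long-Klf4 cassettes read 7.92 to 9.93, and the lacZ cells, which carry no reprogramming factor, read 6.65. WTSI thus had the lowest Nanog reading of the 8 cassettes and the 3 other short-Klf4 cassettes lay well above it, though the gene missed the threshold of the fit. The difference stayed between -3.49 and -2.85 when OKMS, STEMCCA or EB-C5 was left out in turn.

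The Nanog promoter is shown because it carries the composite site at which Oct4 and Sox2 bind side by side, and Pou5f1 and Sox2 are factors of the cassettes. The RefSeq window (GRCm38.p6) spans chr6:122707239-122707538 on the plus strand. The site is in capitals, 75 bases before the start and on the minus strand, where it reads CATTGTNATGCAAA with N for any base. This motif occurred on either strand in 2 of 32851 promoter windows (0.00609%), both of them windows of Nanog. Only this exact string was searched, so sites that differ at another base or lie outside the windows were not counted. The array values do not bear on binding there.
Nanog promoter: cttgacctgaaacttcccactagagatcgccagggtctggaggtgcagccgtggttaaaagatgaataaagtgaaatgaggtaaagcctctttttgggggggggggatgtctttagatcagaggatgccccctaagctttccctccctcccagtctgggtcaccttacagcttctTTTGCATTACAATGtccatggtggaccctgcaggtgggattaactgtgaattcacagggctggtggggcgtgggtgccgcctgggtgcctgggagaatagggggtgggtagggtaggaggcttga

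The other pluripotency genes were read as a late and an early list. Of the 21 measured late pluripotency genes, 5 lay below the range of the other 3 and 4 above, shares close to those of all genes (22.1% and 22.7%), and the median difference was -0.05. Nr0b1, an orphan nuclear receptor of embryonic stem cells, read 7.07 in WTSI, against 11.81 in OKMS, 7.61 in STEMCCA and 8.83 in EB-C5 (-2.35 ± 1.62). OKMS set much of that difference, which was -1.15 without it. L1td1, an RNA-binding protein gene of stem cells, read 8.12 against 9.60, 8.41 and 8.93 (-0.86 ± 0.54). Most other members of the late list read under 7 on all 4 arrays.

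Of the 15 early pluripotency genes, 8 lay below the range (22.1% of all genes did) and 1 above. At least 2-fold lower were 3 (Sall4, Lin28a and Alpl), against 0.431% of all genes. The median was -0.35, with -0.63 without STEMCCA and -0.22 without OKMS. The zinc finger factor gene Sall4 read 7.37 in WTSI, against 10.12 in OKMS, 8.37 in STEMCCA and 9.02 in EB-C5 (-1.80 ± 0.71), close to lacZ at 7.52 and 0.99 below the nearest of the 7 other cassettes. Tissue-nonspecific alkaline phosphatase (Alpl) read 9.22 against 11.29, 9.98 and 10.41 (-1.34 ± 0.71), and the methylcytosine dioxygenase Tet1 7.91 against 8.99, 9.09 and 8.47 (-0.94 ± 0.21). Without OKMS the Alpl difference was -0.97, just under 2-fold, and Alpl stood well above lacZ (6.47) in WTSI. Lin28a, which blocks maturation of let-7 RNAs, read 6.74 in WTSI, against 6.81 in OKMS, 6.96 in STEMCCA and 11.66 in EB-C5 (-1.73 ± 1.64). That difference was -0.14 without EB-C5, the only array of the 4 with a high reading. The chromatin protein gene Utf1 read 6.84 in WTSI against 10.89 in OKMS, 7.25 in STEMCCA and 6.64 in EB-C5, and was high in OKMS alone; without OKMS the difference was -0.11.

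Epithelial adhesion genes, which mark the early step from mesenchymal to epithelial cells, were lower in WTSI at part of the list. Of 28 measured, 11 lay below the range of the other 3 (22.1% of all genes did) and 2 above it. All 11 were also below all 7 other cassettes (10.3% of all genes were). Every long-Klf4 cassette averaged higher than the other 3 in this list, so that count adds little. At least 2-fold lower were 3 (Spint1, Epcam and St14), against 0.431% of all genes. The median was -0.24, or -0.08 without OKMS, and the list averaged 7.41 in WTSI, against 8.23 in OKMS, 7.65 in STEMCCA and 7.55 in EB-C5, with 8.84 to 9.48 in the long-Klf4 cassettes and 7.10 in lacZ. Spint1, an inhibitor of membrane serine proteases, read 7.27 in WTSI, against 10.52, 9.90 and 8.35 (-2.33 ± 0.74; limma adjusted p = 0.669). The adhesion molecule Epcam read 6.82 against 9.26, 8.17 and 7.99 (-1.66 ± 0.47), and the lowest other cassette of the 7 was 1.18 above it. St14, the matriptase that Spint1 inhibits, read 7.81 against 9.83, 8.75 and 8.27 (-1.14 ± 0.52), a difference that was -0.70 without OKMS, under 2-fold. For these genes WTSI was near lacZ, which read 7.07 for Spint1, 6.14 for Epcam and 7.53 for St14. E-cadherin (Cdh1) was instead within the range, at 7.65 in WTSI against 10.10, 9.63 and 7.43 (-1.40 ± 0.85), and low in EB-C5 as well; the difference was -0.87 without OKMS and -2.21 without EB-C5.

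Regulators of the epithelial state were read as a further list. The splicing regulator gene Esrp1 was low in both WTSI and EB-C5, and read 6.28 in WTSI, against 9.37 in OKMS, 7.51 in STEMCCA and 6.10 in EB-C5 (-1.38 ± 1.07, or -0.52 without OKMS and -2.16 without EB-C5). Of 13 measured regulators 3 lay below the range, a share close to the 22.1% of all genes. Klf5 alone lay above it (9.47 against 8.76, 8.88 and 9.12), and the median was -0.19, with -0.10 without OKMS. Among 16 keratins 3 lay above and 2 below, with a median of -0.05, and the stress keratin gene Krt6b read 6.07 in WTSI against 11.37 in OKMS, 7.84 in STEMCCA and 5.96 in EB-C5, a difference of -2.32 that was -0.83 without OKMS. The simple epithelial keratin gene Krt8 read 9.24 in WTSI against 11.61, 9.18 and 9.35. Among 20 genes of the cornified envelope and epidermal barrier 3 lay above and 6 below (median -0.05), and only Sfn, a 14-3-3 protein gene, was at least 2-fold lower, at 7.53 against 10.05, 7.97 and 7.70, with a difference of -0.31 without OKMS.

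Several of the largest negative differences fell outside the lists. Apela, which encodes a peptide ligand of the apelin receptor and is expressed in pluripotent cells, read 9.44 in WTSI, against 11.72 in OKMS, 11.14 in STEMCCA and 11.31 in EB-C5 (-1.94 ± 0.29; limma adjusted p = 0.393). It had the widest gap of any gene, since all 7 other cassettes read at least 1.53 higher, although WTSI stood above lacZ (6.05). WTSI lay below all 7 by at least 1 at 5 genes (0.0251%): Apela, Epcam, Spint1, Ecscr and Plet1. These 5 genes and the 3 above all 7 made 8, a count that was 13 without STEMCCA and 34 without EB-C5. The surface protein gene Plet1 read 7.61 against 10.64, 8.98 and 8.64 (-1.81 ± 0.66, or -1.20 without OKMS). The cationic amino acid transporter gene Slc7a3 read 9.41 against 12.40, 11.22 and 10.58 (-1.99 ± 0.84). The opioid peptide precursor gene Penk read 10.77 against 12.52, 13.30 and 11.91 (-1.80 ± 0.88), and OKN-HAMS was nearly as low (10.87). The aggrecanase gene Adamts5 read 7.64 against 8.38, 10.45 and 9.47 (-1.79 ± 0.83), below lacZ (9.94).

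In other genes with a large negative difference EB-C5 was low together with WTSI. The lysosomal membrane protein gene Laptm5 read 7.38 in WTSI, against 10.57 in OKMS, 10.51 in STEMCCA and 8.11 in EB-C5 (-2.35 ± 1.34). The thyrotropin-releasing hormone gene Trh read 7.23 against 11.11, 9.99 and 7.61 (-2.35 ± 1.05). It was lower still in the long-Klf4 cassettes (6.39 to 6.82) and lacZ (6.33), so OKMS and STEMCCA were the high arrays. EB-C5 was the nearest array for 46 of the 86 lower genes and the farthest for 5, while OKMS was the farthest for 42 and STEMCCA for 39. The nearest and farthest arrays were not counted over all genes. The calcium pump gene Atp2a3 read 6.41 in WTSI against 10.62, 6.78 and 7.18 (-1.78 ± 1.53), and the difference was -0.57 without OKMS. The chemokine gene Cxcl15 read 6.14 against 7.46, 8.84 and 7.44 (-1.78 ± 0.89), with 6.17 in OKN-HAMS and 5.21 in lacZ. Of the 86 lower genes, 62 lay below all 7 other cassettes. The WTSI value was within 1 of lacZ for 42, of the long-Klf4 mean for 32 and of the Klf4-alone mean for 30. Over all genes of any size, 4399 lay below the range of the other 3 and 2054 below all 7. Nearness to these groups was again not counted over all genes. Leaving out EB-C5 from the other 3 raised the count of genes at least 2-fold and outside the range to 302, of which 108 were higher and 194 lower.

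Proliferation genes read lower in WTSI by small amounts. Over all genes, 48.8% lay above the mean of the other 3 and 22.1% below their range. All 26 DNA replication genes were below the mean of the other 3 and 13 were below their range, with a median of -0.44, and 22 of 24 mitosis genes were below the mean and 15 below the range, with a median of -0.39. None was at least 2-fold lower and none was called by limma. The replication list averaged 9.68 in WTSI, against 10.31 in OKMS, 9.69 in STEMCCA and 10.27 in EB-C5, and the mitosis list 10.07 against 10.57, 10.17 and 10.57. STEMCCA was thus as low as WTSI in replication genes. The clamp loader subunit gene Rfc4 read 10.35 in WTSI against 11.41, 10.84 and 11.61 (-0.94 ± 0.33), and the kinetochore protein gene Cenpf read 7.96 against 8.80, 8.55 and 8.85 (-0.78 ± 0.19). Without STEMCCA the medians were -0.62 for replication and -0.51 for mitosis genes, and without OKMS -0.32 and -0.33. For replication genes MKOS averaged 9.02, OK+9MS 9.67 and OSKM 9.71, so the WTSI value lay among those of the long-Klf4 cassettes, and the 2 Klf4 constructs averaged 8.23 and 8.21.

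Of 18 measured glycolysis and hypoxia genes, 12 lay below the range (22.1% of all genes did) and 1 above. At least 2-fold lower were 2 (0.431% of all genes were), and the median was -0.26, or -0.51 without EB-C5. The glucose transporter gene Slc2a1 read 11.14 in WTSI, against 12.73 in OKMS, 12.43 in STEMCCA and 11.94 in EB-C5 (-1.22 ± 0.35), below all 10 other arrays. The mitophagy receptor gene Bnip3 read 9.24 against 10.35, 10.73 and 10.14 (-1.17 ± 0.31). The list averaged 10.03 in WTSI, against 10.60, 10.53 and 10.18, the lowest of the 11 arrays, with 10.37 to 10.45 in the long-Klf4 cassettes and 10.28 in lacZ. The enzyme gene Pgk1, an example at high signal, differed little, at 12.35 against 12.52, 12.56 and 12.49. Over the 16 members at or above the median level, the median was -0.22, close to that of the whole list.

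Of 25 interferon-response genes, 11 lay below the range (22.1% of all genes did) and 1 above, and the median was -0.43. This value rested on STEMCCA: the list averaged 8.47 in WTSI, against 8.61 in OKMS, 9.41 in STEMCCA and 8.55 in EB-C5, and the median was -0.09 without STEMCCA. The antiviral enzyme gene Rsad2 read 8.74 in WTSI against 9.09, 10.34 and 9.91 (-1.04 ± 0.52), a difference of -0.76 without STEMCCA. The cytosolic RNA sensor gene Ddx58 read 9.59 against 10.33, 10.83 and 10.04 (-0.81 ± 0.41). The lacZ cells had the highest list mean, 9.81.

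**Figure D4:**
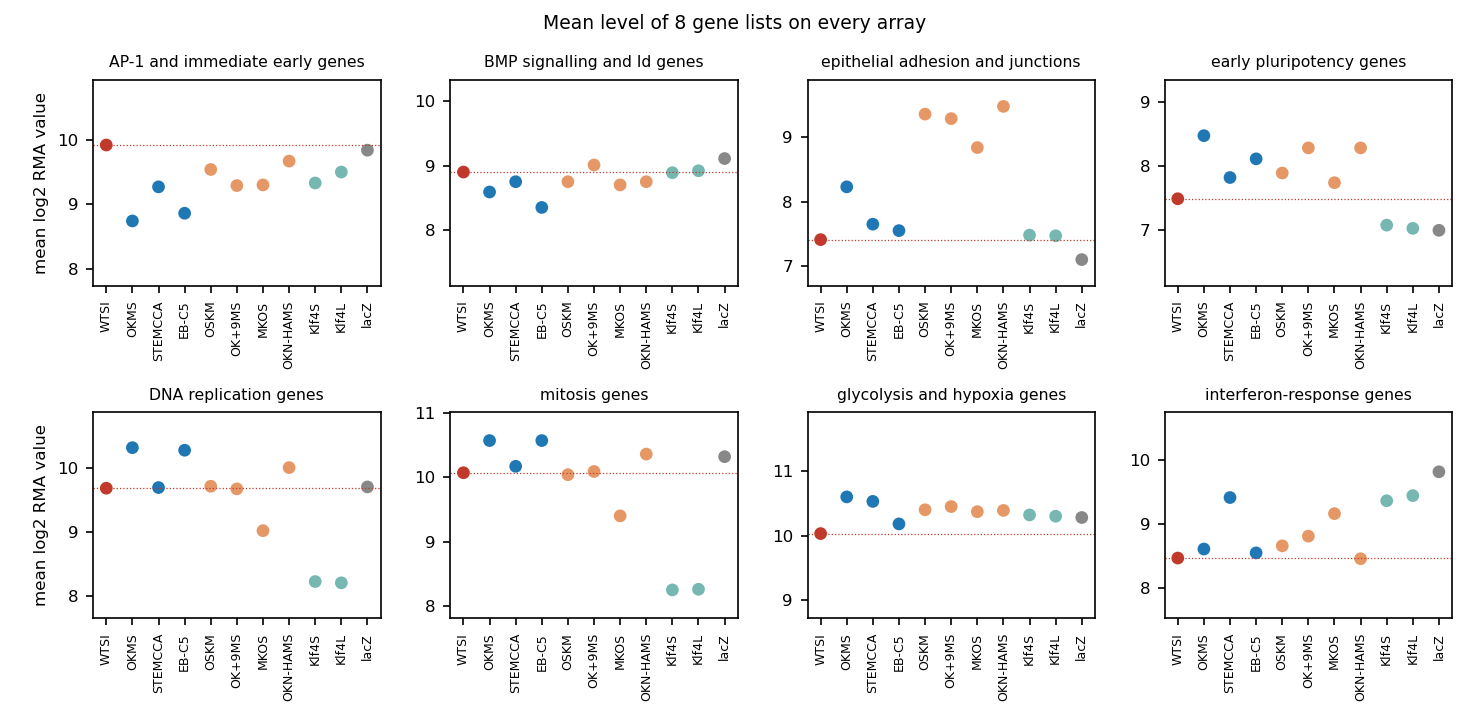
Mean deposited log2 RMA value (y axis, the same span in every panel) of the measured members of 8 gene lists on each of the 11 arrays (x axis): WTSI in red, the other short-Klf4 cassettes in blue, long-Klf4 cassettes in orange, Klf4 alone in green and lacZ in grey; the dotted line marks WTSI. WTSI is the highest array for immediate early genes (9.92) and the lowest for glycolysis and hypoxia genes (10.03), while for replication genes STEMCCA (9.69) is level with it.

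Fibroblast programmes leaned in different directions by small amounts. Of 27 mesenchymal and matrix genes 20 lay below the mean of the other 3, while 48.8% of all genes lay above it. Of the 27, 2 lay above and 4 below the range, with a median of -0.11, or 0.07 without STEMCCA. The matricellular protein gene Postn read 10.83 in WTSI against 11.98 in OKMS, 12.84 in STEMCCA and 11.27 in EB-C5 (-1.20 ± 0.79, or -0.79 without STEMCCA), and the calcium-binding protein gene S100a4 read 10.53 against 9.65, 9.46 and 9.01 (1.16 ± 0.27, or 0.98 without EB-C5). Of 8 EMT transcription factors 2 lay above (Snai1, at 10.02 against 9.33, 9.60 and 8.82, and Foxc2, at 9.19 against 8.25, 8.63 and 8.42) and 1 below; the median was 0.09. Smooth muscle and TGF-beta genes were above the mean at 16 of 18 members, with 4 above the range (22.7% of all genes were). Their median was 0.24, which was 0.04 without EB-C5 and 0.60 without STEMCCA. The secreted CCN protein gene Ccn2 read 12.27 in WTSI against 11.77, 11.19 and 10.47 (1.12 ± 0.51, or 0.79 without EB-C5), and the TGF-beta inhibitor gene Smad7 9.06 against 7.98, 8.48 and 7.78 (0.98 ± 0.26).

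The remaining lists were described by counts. Of 13 p53 targets and senescence genes 6 lay above the range and 0 below (median 0.15, with 0.30 without STEMCCA); the antiproliferative gene Btg2 read 11.37 in WTSI against 10.05, 10.91 and 10.68, and Cdkn2a, the Ink4a/Arf locus, read 9.86 against 8.96, 9.28 and 9.42. Of 23 MYC target and ribosome biogenesis genes 3 lay above and 0 below (median -0.01). Of 15 FGF and ERK feedback genes 2 lay above and 2 below (median -0.07), with the receptor signalling inhibitor gene Spry1 at 8.44 in WTSI against 9.69, 9.66 and 8.81. Of 12 stress and unfolded protein genes 2 lay above and 1 below (median 0.02). Of 24 neural genes 7 lay above and 5 below (median 0.02), with the microtubule protein gene Map2 at 8.88 in WTSI against 9.57, 10.21 and 9.95 (-1.03 ± 0.24, or -0.88 without STEMCCA). Median differences of the macrophage (0.04), endothelial (-0.01), skeletal muscle (0.05) and cartilage and bone (0.10) markers lay within 0.10 of 0 over all measured members, most of which read below the array medians. These shares can be read against the 22.7% of all genes above and the 22.1% below the range.

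**Figure D5:**
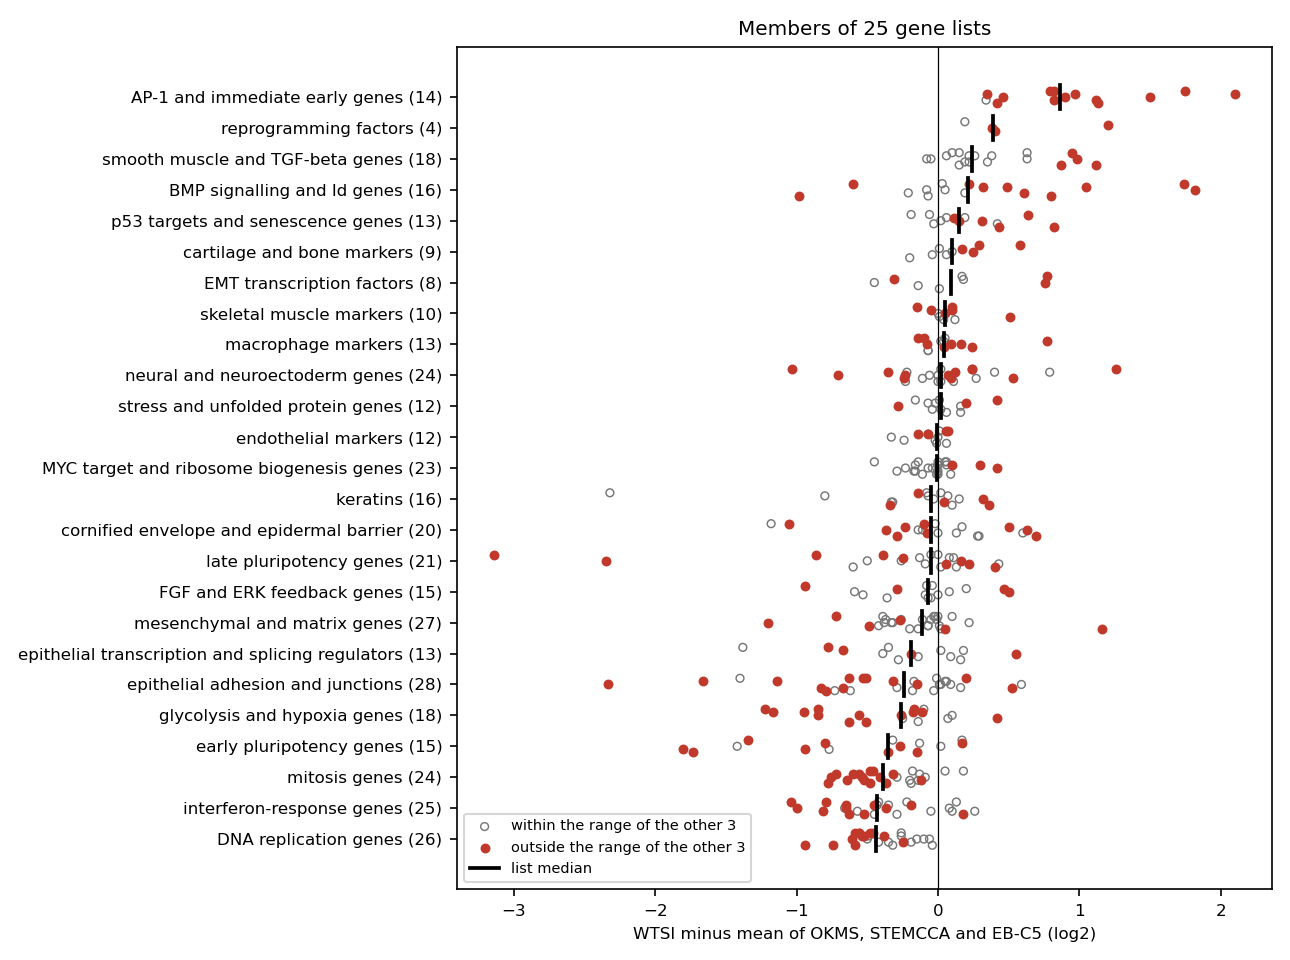
Difference of WTSI from the mean of OKMS, STEMCCA and EB-C5 on the log2 scale (x axis) for every measured member of 25 gene lists (rows, number measured in brackets), filled where WTSI lies outside the range of the other 3; black bars are list medians. Immediate early genes have the highest median (0.86) and DNA replication genes the lowest (-0.44).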

How the data were processed

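Gene expression was measured on 11 Affymetrix mouse gene arrays, 1 per construct. The deposited values are log2 values that the authors made with RMA (version not given in the sources used here), per the submitters' processing notes. RMA can understate large differences. The table held 28856 probe sets, of which 21789 carried 1 gene symbol, 1621 several and 5446 none; those with several or none were left out. Where a gene had several (999 genes), the probe set with the highest mean was kept, which gave 19938 genes.

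The values were used as deposited, with no filter on dim genes. WTSI was compared with the mean and range of OKMS, STEMCCA and EB-C5. Differences, SEs and adjusted p-values came from limma 3.58.1 (R 4.3.3, lmFit and eBayes) over 5 groups and 11 arrays. Benjamini-Hochberg adjustment ran over all genes, with calls under 0.05. On simulated data with independent noise the procedure recovered 66% of genes changed 2-fold and also called some unchanged genes. That simulation does not show how the procedure performs on the real arrays. WTSI has 1 array and no spread of its own. P-values measure the spread between constructs.

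The comparison and the 25 gene lists (444 entries, 424 measured) were chosen with earlier results of these data known. Named genes were the 15 largest differences in each direction among called genes outside the range, filled, since none was called, with genes at least 2-fold and outside the range; the 4 factors; up to 5 members of each list; and the 10 widest gaps to the 7 other cassettes. Predicted genes, small RNAs and chemosensory receptors were only counted. Genes named as just inside or outside the threshold, as called only after leaving out an array, as markers of the cell type (Vim) or as an example at high signal (Pgk1) fall outside this rule and were chosen after their values were seen. No chip batch is given in the labels. Alternatives were other scalings, probe set rules, filters, folds, sets of arrays and left-out arrays.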

Additional observations from a re-analysis of the deposited data

Results flagged for a closer look

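In groups of 4 arrays, a value was singled out when its gap to the nearest other array, divided by the whole range of the group, exceeded Dixon's critical value, which chance exceeds in about 1 in 20 groups. Of 50 groups of list means, 4 met this. The other groups were single genes, most of them named in the report for a large difference or gap, so the rate of 1 in 20 does not apply to them, and 4 of these genes met it as a description. The groups are of different constructs measured once each.

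WTSI was the array that stood apart for 3 genes among the short-Klf4 cassettes: Cxcr6 at 7.77 against 5.97 to 6.21 in the other 3, Upp1 at 9.15 against 7.64 to 7.87, and Ecscr at 7.81 against 8.83 to 8.96. EB-C5 stood apart for Lin28a, at 11.66 against 6.74 to 6.96 in WTSI, OKMS and STEMCCA. OKMS stood apart in the mean of epithelial transcription and splicing regulators, at 7.96 against 7.26 to 7.29, and in that of keratins, at 7.72 against 6.87 to 6.99. STEMCCA stood apart in the mean of interferon-response genes, at 9.41 against 8.47 to 8.61. Among the long-Klf4 cassettes, OK+9MS stood apart in the mean of BMP signalling and Id genes, at 9.01 against 8.70 to 8.75. The part of culture, sorting or array in these values was not tested.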

How the results depend on the processing

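No paired analysis was possible because the constructs were measured once each and share no replicate number that marks a common source. The count of genes called by limma was 0 under 4 or 8 arrays alone, other scalings, probe set rules, the filter on dim genes, an intensity trend, all 7 other cassettes as the group, and without lacZ; leaving out 1 array gave 0 to 7. Without OKMS the call was Gna14 (1.46), and without EB-C5 the calls included Arhgef33, Ecscr, Herc3, Lama5, Nrcam and Tet1. For some of these genes the array left out was the one that read like WTSI. Gna14 read 9.3 in WTSI and 9.48 in OKMS, Herc3 9.79 in both WTSI and EB-C5, and Lama5 8.13 in WTSI and 8.11 in EB-C5. With all 3 arrays kept, Nrcam lay outside the range by only 0.03, and Arhgef33, Tet1 and Ecscr by 0.62, 0.56 and 1.02. Unadjusted counts ran from 579 to 1627. Genes at least 2-fold and outside the range numbered 152 in the main setting, 121 to 160 under other scalings, probe set rules, a median or the filter, 163 to 302 without 1 of the other 3 arrays, 779 at 1.5-fold and 24 at 3-fold. Genes beyond all 7 other cassettes by 1 numbered 8, and 10 to 34 without 1 array. Among genes at or above the median level, the list median was -0.94 over 9 early and -0.36 over 4 late pluripotency genes, and the macrophage (0.77), endothelial (-0.24) and skeletal muscle (0.51) lists were left with 1 marker each. With 1 array left out, the difference crossed 0 for Pou5f1 (-0.21 to 0.46), Krt17 (-0.76 to 0.37), Krtdap (-2.05 to 0.25), Tgm3 (-0.15 to 1.47), Cnn1 (-0.01 to 0.96), Rrp9 (-0.57 to 0.23), Tfrc (-0.58 to 0.01), Chac1 (-0.18 to 0.45), Ddit3 (-0.01 to 0.46), Nefl (-0.14 to 1.30), Cldn5 (-0.19 to 0.00) and Col11a1 (-0.46 to 0.08); the cause was not tested. With 1 array per construct, differences of low signals are limited by background.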

Other observations

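Among the 7067 probe sets with no symbol or several, 11 were at least 2-fold higher in WTSI and above the range of OKMS, STEMCCA and EB-C5, and 11 were at least 2-fold lower and below it.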
